A study of Mus musculus with 16 samples.

Results

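The 38 genes described here form the type I interferon response: the receptor for interferon alpha and beta, the transcription factors it activates, and genes that interferon induces. They were chosen by symbol, with earlier results of these data known, out of 17097 genes with a probe set matched to 1 gene on the arrays. Of the 38, 34 had such a probe set, and 29 were tested, those that exceeded 5 (log2) on 4 or more arrays. The levels come from 16 Affymetrix arrays of CD4 T cells sorted from spleens of 6 week old NOD/LtJ mice, with 4 arrays in each of 4 groups. The groups were KI Tregs and KI Tconv, from mice with the knock-in allele Foxp3tm2Ayr, which fuses GFP to Foxp3 itself and is described in the labels as Foxp3gfp, and WT Tregs and WT Tconv, from mice with the transgene Tg(Foxp3-EGFP/cre)1aJbs. Both genotypes therefore carry a Foxp3-linked GFP, and no group lacks a reporter. No further treatment was given, and the labels leave unsaid whether replicate arrays stem from different mice, so p-values measure only the spread between these samples.

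Tregs, which hold back immune responses, owe their identity to the transcription factor Foxp3. The labels' protocol gives the gate CD3+CD4+GFP- for every sample, so how the labelled Tregs were gated cannot be read from it. Foxp3 had a mean of 9.76 in KI Tregs and 3.69 in KI Tconv, and 9.86 in WT Tregs and 4.63 in WT Tconv. Cd3e, a T cell receptor component, lay between 8.84 and 8.89 in the means of all 4 groups. All levels are log2 values made by the authors with RMA, a difference of 1 in them is a change of 2-fold, and array medians ran from 3.69 to 3.76. The title numbers 4 to 9 are all WT, 13 to 23 are all KI, and only 24 to 27 hold 1 array of each group.

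Type I interferons are secreted when cells sense viral or other nucleic acids, and plasmacytoid dendritic cells are a potent source. They bind a receptor made of Ifnar1 and Ifnar2, whose kinases start a phosphorylation cascade. Stat2 and Irf9 are parts of the complex that then binds interferon-stimulated response elements in promoters and switches on antiviral genes. In NOD mice, which develop autoimmune diabetes, an interferon signature precedes disease in the pancreas and its lymph nodes.

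The RefSeq promoter windows of 4 members are shown, those of Ifit1, Ifit3 and Rsad2, which had the widest spread between arrays of a group, and of Samhd1, which had the lowest p. Each window runs from 250 bases before to 50 bases after the start site in the build GRCm38.p6, 5′ to 3′ on the gene's strand. Capitals mark matches to the response element, searched as GAAA, a pair of any bases, then GAAA, or on the other strand TTTC, a pair of any bases, then TTTC. The windows are chr19:34640639-34640938 (plus strand) for Ifit1, chr19:34583279-34583578 (plus strand) for Ifit3, chr12:26456403-26456702 (minus strand) for Rsad2 and chr2:157135047-157135346 (minus strand) for Samhd1.
Ifit1: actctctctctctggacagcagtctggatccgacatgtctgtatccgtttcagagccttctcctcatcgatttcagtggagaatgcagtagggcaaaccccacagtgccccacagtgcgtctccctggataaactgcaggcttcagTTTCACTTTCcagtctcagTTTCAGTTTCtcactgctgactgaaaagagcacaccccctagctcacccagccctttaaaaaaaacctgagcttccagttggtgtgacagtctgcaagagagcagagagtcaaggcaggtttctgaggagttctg
Ifit3: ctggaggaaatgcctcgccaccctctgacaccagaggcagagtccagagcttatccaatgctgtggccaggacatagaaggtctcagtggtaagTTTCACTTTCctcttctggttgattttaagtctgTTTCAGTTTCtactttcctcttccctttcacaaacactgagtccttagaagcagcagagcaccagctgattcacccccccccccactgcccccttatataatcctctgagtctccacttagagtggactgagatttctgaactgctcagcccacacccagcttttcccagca
Rsad2: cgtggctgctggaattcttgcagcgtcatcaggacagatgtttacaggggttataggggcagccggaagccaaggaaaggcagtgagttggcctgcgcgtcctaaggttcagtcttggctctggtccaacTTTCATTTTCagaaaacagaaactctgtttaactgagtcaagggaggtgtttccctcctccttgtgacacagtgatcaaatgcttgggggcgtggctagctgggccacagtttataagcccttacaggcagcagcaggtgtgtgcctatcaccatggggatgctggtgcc
Samhd1: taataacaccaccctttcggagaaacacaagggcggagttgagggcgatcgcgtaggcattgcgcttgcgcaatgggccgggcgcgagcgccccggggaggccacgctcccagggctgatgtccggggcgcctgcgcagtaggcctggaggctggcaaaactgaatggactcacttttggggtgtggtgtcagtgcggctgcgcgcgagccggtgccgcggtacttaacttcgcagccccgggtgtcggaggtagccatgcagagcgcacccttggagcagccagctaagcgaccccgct
Ifit1 and Ifit3 each held a pair of matches, Rsad2 held 1, and the Samhd1 window held none. Shorter stretches around the first match are shown for the other tested members with one, at chr10:128270266-128270295 (plus strand) for Stat2, chr4:40239804-40239833 (minus strand) for Ddx58, chr2:62646206-62646233 (minus strand) for Ifih1 and chr7:104465210-104465239 (minus strand) for Trim30a.
Stat2: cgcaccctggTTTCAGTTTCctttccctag
Ddx58: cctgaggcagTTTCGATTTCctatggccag
Ifih1: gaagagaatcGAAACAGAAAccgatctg
Trim30a: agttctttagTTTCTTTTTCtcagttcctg
Among the 29 members with a window in the table, 11 (37.9%) held the response element, against 3.99% of the 27025 genes with a window and 3.44% of the 32851 windows. The element of gamma-activated sites, which is TTC and GAA around a triplet of any bases and reads the same on both strands, was in 10 members (34.5%), against 9.55% of genes. The members Parp9, Mx1, Mx2, Dhx58, Rtp4, Oas2, Usp18, Zbp1 and Parp14 were matched to no window. A match is a description of the letters in these windows.

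**Figure D1:**
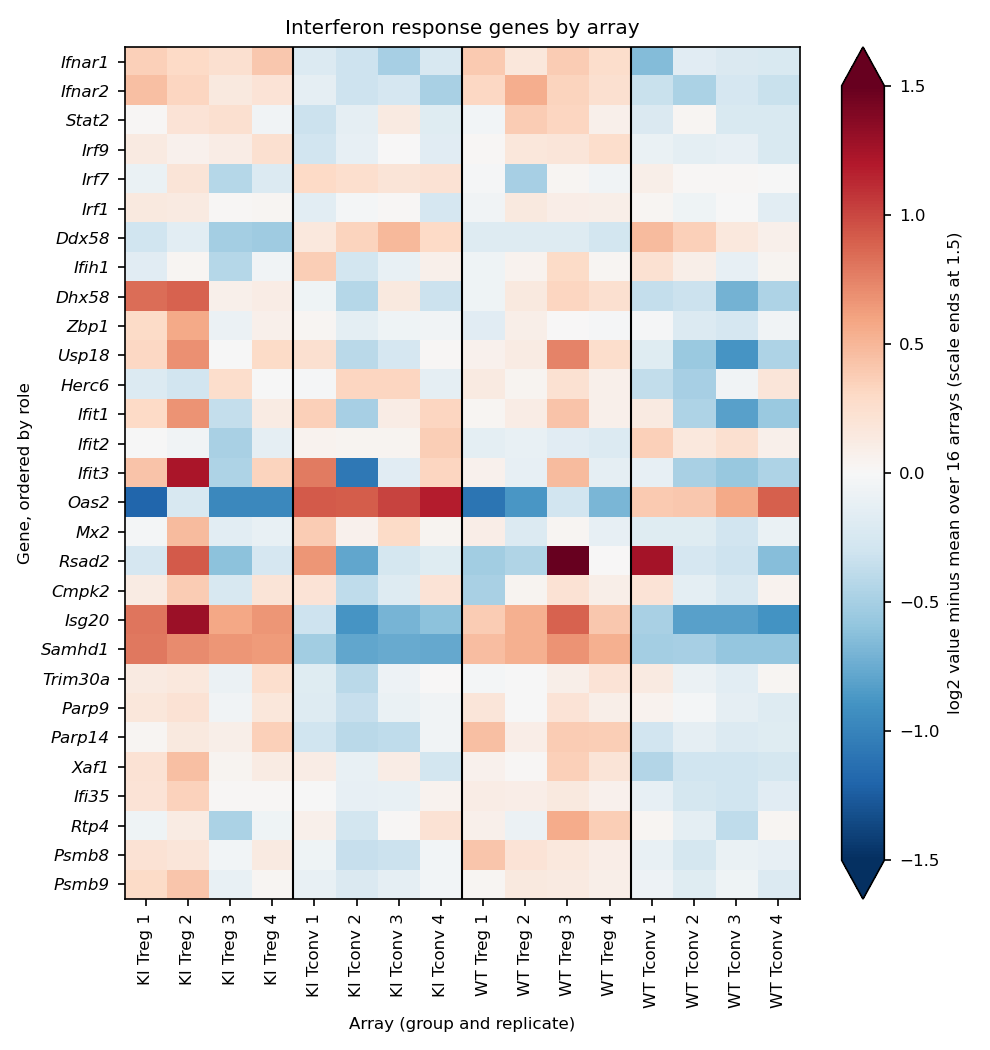
Level of each of the 29 tested genes (rows, ordered by role) on each of the 16 arrays (columns, by group and replicate), as the log2 value minus the gene's mean over all arrays, with the colour scale ending at 1.5. Samhd1, Isg20, Ifnar1 and Ifnar2 are high on all Treg arrays, Oas2 and Ddx58 on all Tconv arrays, and the Ifit3 and Rsad2 rows vary between arrays of 1 group.

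Tregs and Tconv were compared within each genotype first. Of the 29 tested members, 16 differed between KI Tregs and KI Tconv, 12 higher and 4 lower in the Tregs, with limma at an adjusted p under 0.05. The same test called 41.1% of all 8139 genes in that comparison, 21.2% higher and 19.9% lower. Between WT Tregs and WT Tconv 15 members differed, 12 higher and 3 lower, where 34.6% of all genes were called, 16.7% higher and 17.9% lower. The median difference over the members was 0.25 in KI and 0.31 in WT cells, beside -0.02 and -0.03 over all genes. Oas2 lay below 5 on every Treg array and passed the filter through Tconv alone, so it had to be lower in Tregs. Without Oas2 the counts were 15 of 28 in KI cells, 3 of them lower, and 14 in WT cells, 2 of them lower. The arrays did not overlap for 7 members higher and 4 lower in KI Tregs, where 34.7% of all genes did not overlap, and for 12 higher and 3 lower in WT Tregs, where 37.2% did not.

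The 8 members higher in Tregs of both genotypes were Dhx58, Ifnar1, Ifnar2, Irf9, Isg20, Parp14, Psmb8 and Samhd1, which is 66.7% of the members that rose in each genotype. Over all genes, those higher in both were 69.1% of the ones higher in KI and 87.6% of the ones higher in WT Tregs. The 3 lower in both were Ddx58, Ifit2 and Oas2, of which Oas2 had to be lower. Over all genes, those lower in both were 69.1% of the ones lower in KI and 76.8% of the ones lower in WT Tregs. Another 5 members passed in KI cells alone and 4 in WT cells alone, 9 passed in neither, and none passed in opposite directions. Over all genes 12.7% passed in KI cells alone, 6.2% in WT cells alone and 52.7% in neither. In these bulk samples fewer cells that express a gene and less RNA per cell cannot be told apart.

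Both receptor chains were higher in Tregs. The standard error (SE) of a gene is the same in both genotypes, because the fit shares 1 spread over the 4 groups. Ifnar1, which carries the docking site of the kinase Tyk2, measured 8.78, 8.72, 8.65 and 8.82 in KI Tregs, against 8.22, 8.10, 7.92 and 8.18 in KI Tconv. It measured 8.81, 8.59, 8.80 and 8.68 in WT Tregs, against 7.77, 8.25, 8.20 and 8.19 in WT Tconv. The groups did not overlap in either genotype, and the differences were 0.64 in KI cells (SE 0.0985, limma adjusted p = 4.03e-05) and 0.62 in WT cells (adjusted p = 7.06e-05).

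Ifnar2, the chain that holds interferon with the higher affinity and docks Jak1, measured 9.26, 9.13, 8.96 and 9.01 in KI Tregs, against 8.67, 8.50, 8.56 and 8.32 in KI Tconv. It measured 9.12, 9.35, 9.14 and 9.05 in WT Tregs, against 8.48, 8.33, 8.55 and 8.47 in WT Tconv. Every Treg array exceeded every Tconv array, and the differences were 0.58 in KI cells (SE 0.0885, limma adjusted p = 3.79e-05) and 0.71 in WT cells (adjusted p = 4.79e-06). The other 2 probe sets of Ifnar2 gave 0.70 and 0.50 in KI cells and 0.77 and 0.52 in WT cells.

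Of the transcription factors that act below the receptor, Irf9 was higher in Tregs of both genotypes. Irf9, the DNA-binding subunit of the interferon complex, measured 9.12, 9.05, 9.10 and 9.22 in KI Tregs, against 8.69, 8.86, 8.98 and 8.81 in KI Tconv. It measured 9.00, 9.15, 9.16 and 9.25 in WT Tregs, against 8.88, 8.83, 8.85 and 8.75 in WT Tconv. The arrays of the cell types did not overlap, and the differences were small, 0.28 in KI cells (SE 0.0708, limma adjusted p = 0.00368) and 0.31 in WT cells (adjusted p = 0.00214).

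Stat2, a partner of Irf9, measured 6.13, 6.32, 6.35 and 6.06 in KI Tregs, against 5.79, 5.98, 6.25 and 5.93 in KI Tconv. It measured 6.07, 6.50, 6.44 and 6.20 in WT Tregs, against 5.90, 6.15, 5.89 and 5.89 in WT Tconv. The groups overlapped, and the differences were 0.23 in KI cells (SE 0.122, limma adjusted p = 0.146) and 0.34 in WT cells (adjusted p = 0.0377). The WT call was lost without WT Treg 2 (0.28), WT Treg 3 (0.30), WT Tconv 1 (0.32), WT Tconv 3 (0.32) or WT Tconv 4 (0.32), with no filter on low values (adjusted p = 0.072) and without the arrays numbered 24 to 27 (0.35, adjusted p = 0.0732).

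Irf7, the factor that amplifies interferon production and is itself induced by interferon, measured 6.22, 6.51, 5.89 and 6.11 in KI Tregs, against 6.62, 6.57, 6.52 and 6.54 in KI Tconv. It measured 6.30, 5.82, 6.35 and 6.27 in WT Tregs, against 6.41, 6.34, 6.34 and 6.31 in WT Tconv. Every KI Treg array lay below every KI Tconv array, while the WT arrays overlapped. The KI groups nearly met, at 6.513 on KI Treg 2 and 6.515 on KI Tconv 3. The differences were -0.38 in KI cells (SE 0.127, limma adjusted p = 0.0233) and -0.16 in WT cells (adjusted p = 0.352). The KI call was lost without KI Treg 3 (-0.28), KI Tconv 1 (-0.36) or the arrays numbered 24 to 27 (-0.36, limma adjusted p = 0.0837).

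Irf1, which drives antigen presentation genes, was 0.19 higher in KI Tregs (SE 0.0669, limma adjusted p = 0.0338). Its difference in WT cells was 0.12 (adjusted p = 0.192). The KI call was lost with any of KI Treg 1 (0.16), KI Treg 2 (0.17), KI Tconv 1 (0.17) or KI Tconv 4 (0.14) left out. It was also lost with no filter, no trend in the variance, median-centred arrays, only the 2 groups in the fit or the arrays numbered 24 to 27 left out, with limma adjusted p from 0.0509 to 0.0985.

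The 4 nucleic acid sensors did not move together. Ddx58, which encodes the RNA sensor RIG-I, measured 8.01, 8.15, 7.80 and 7.77 in KI Tregs, against 8.47, 8.64, 8.79 and 8.61 in KI Tconv. It measured 8.12, 8.12, 8.12 and 8.03 in WT Tregs, against 8.78, 8.67, 8.47 and 8.38 in WT Tconv. Every Treg array lay below every Tconv array, with differences of -0.70 in KI cells (SE 0.0994, limma adjusted p = 1.7e-05) and -0.48 in WT cells (adjusted p = 0.00101). Its other 2 probe sets were also lower in Tregs, with differences of -0.40 and -0.76 in KI cells and -0.20 and -0.61 in WT cells.

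Dhx58, which encodes the related regulator LGP2, was higher in Tregs, with differences of 0.65 in KI cells (SE 0.181, limma adjusted p = 0.00811) and 0.63 in WT cells (adjusted p = 0.0117). Ifih1, which encodes the RNA sensor MDA5, passed in neither genotype, with -0.17 in KI and 0.02 in WT cells. Zbp1, a sensor of Z-form nucleic acids that can start cell death, differed by 0.27 in KI cells (limma adjusted p = 0.0535) and 0.10 in WT cells (adjusted p = 0.499). A second, dimmer probe set of Zbp1 differed by 0.64 in KI and 0.72 in WT cells, so the size for Zbp1 depends on the probe set. In KI cells Zbp1 passed without KI Treg 3 (0.37) or KI Treg 4 (0.32), and with array weights, which count each array by how closely it follows its group (0.35, limma adjusted p = 0.00136).

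Among the antiviral effectors, Samhd1 and Isg20 stood far higher in Tregs. Samhd1, a phosphohydrolase that depletes the nucleotides viruses need for DNA synthesis, measured 11.93, 11.86, 11.80 and 11.79 in KI Tregs, against 10.63, 10.37, 10.38 and 10.37 in KI Tconv. It measured 11.61, 11.67, 11.81 and 11.67 in WT Tregs, against 10.63, 10.65, 10.57 and 10.56 in WT Tconv. No arrays of the cell types overlapped, and the differences of 1.41 in KI cells (SE 0.061, limma adjusted p = 2.19e-12) and 1.09 in WT cells (adjusted p = 1.01e-10) had the lowest p of any member. A second probe set of Samhd1 gave 1.55 in KI and 1.08 in WT cells.

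Isg20, an exonuclease that degrades RNA, measured 8.79, 9.27, 8.56 and 8.65 in KI Tregs, against 7.68, 7.11, 7.29 and 7.37 in KI Tconv. It measured 8.36, 8.52, 8.87 and 8.39 in WT Tregs, against 7.50, 7.17, 7.17 and 7.09 in WT Tconv. Tregs were higher on every array, by 1.46 in KI cells (SE 0.154, limma adjusted p = 4.08e-07) and 1.30 in WT cells (adjusted p = 2.24e-06).

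Oas2, an enzyme that makes the oligoadenylates that activate RNase L, measured 3.29, 4.23, 3.52 and 3.52 in KI Tregs, against 5.40, 5.39, 5.49 and 5.66 in KI Tconv. It measured 3.38, 3.61, 4.19 and 3.79 in WT Tregs, against 4.87, 4.88, 5.05 and 5.38 in WT Tconv. Tregs lay near the array medians and below every Tconv array. The differences, -1.85 in KI and -1.30 in WT cells, are a description, since Oas2 was kept for its Tconv values alone.

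Ifit2, a member of the family that binds viral RNA, was lower in Tregs, with differences of -0.30 in KI cells (SE 0.1, limma adjusted p = 0.024) and -0.37 in WT cells (adjusted p = 0.00807). The KI call for Ifit2 was lost without KI Treg 3 (-0.19) or KI Tconv 4 (-0.22), with array weights (-0.15, limma adjusted p = 0.108), with only the 2 groups in the fit (adjusted p = 0.0741) and without the arrays numbered 24 to 27 (-0.23, adjusted p = 0.103). Its neighbour on chromosome 19, Ifit3, passed in neither genotype. Ifit3 measured 6.33, 7.13, 5.45 and 6.25 in KI Tregs, against 6.69, 4.84, 5.74 and 6.23 in KI Tconv. It measured 5.97, 5.78, 6.38 and 5.77 in WT Tregs, against 5.79, 5.42, 5.34 and 5.45 in WT Tconv. The KI arrays of Ifit3 overlapped widely between cell types, and the differences were 0.42 in KI cells (SE 0.332, limma adjusted p = 0.341) and 0.48 in WT cells (adjusted p = 0.29). Ifit3 passed in KI cells with array weights (0.80, limma adjusted p = 0.0212) and in WT cells with only the 2 groups in the fit (adjusted p = 0.026). Ifit1 differed by 0.11 in KI cells (limma adjusted p = 0.733) and 0.58 in WT cells (adjusted p = 0.0512). In WT cells Ifit1 passed without KI Treg 2, KI Treg 3, KI Tconv 2 or KI Tconv 4 (0.58 each) or WT Tconv 1 (0.77), and under 5 of the other settings, with limma adjusted p from 0.01 to 0.0499.

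Rsad2, which encodes the antiviral enzyme viperin, differed by 0.09 in KI and 0.17 in WT cells and passed in neither. Its genomic neighbour Cmpk2, a mitochondrial nucleotide kinase, differed by 0.15 and -0.01, and Mx2, a dynamin-like GTPase, by -0.15 and 0.14. None of these 3 reached the threshold in either genotype.

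**Figure D2:**
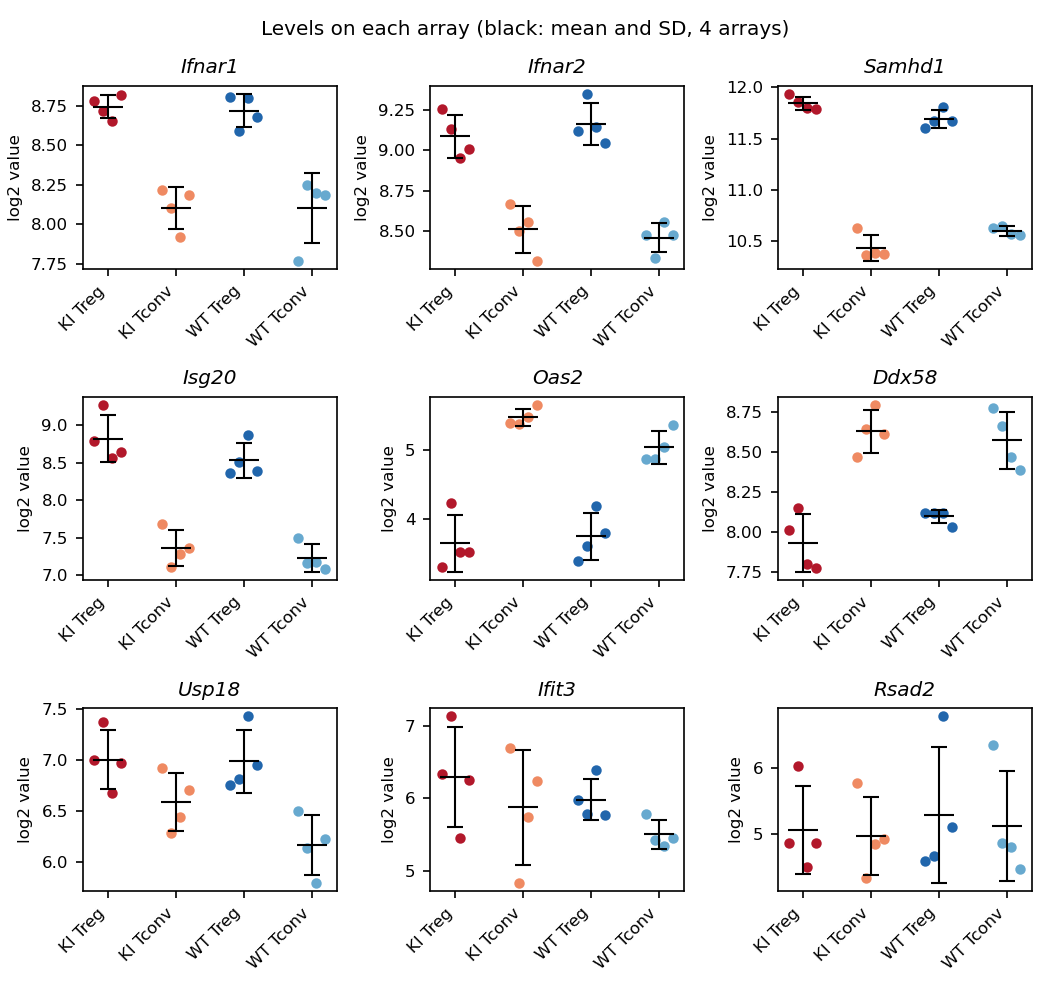
Log2 values of selected genes on each array (points) in the 4 groups, with the mean and SD of 4 arrays in black. Samhd1 and Isg20 lie higher and Oas2 lower in the Tregs of both genotypes, with no overlap with Tconv.

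Of the remaining induced genes, Psmb8 and Parp14 were higher in Tregs of both genotypes. Psmb8, a catalytic subunit of the immunoproteasome, measured 11.46, 11.42, 11.20 and 11.38 in KI Tregs, against 11.17, 10.90, 10.91 and 11.20 in KI Tconv. It measured 11.66, 11.45, 11.40 and 11.33 in WT Tregs, against 11.12, 10.97, 11.13 and 11.11 in WT Tconv. Tregs did not overlap Tconv, though in KI cells they nearly met, at 11.198 on KI Treg 3 and 11.195 on KI Tconv 4. The differences were 0.32 in KI cells (SE 0.0817, limma adjusted p = 0.00437) and 0.38 in WT cells (adjusted p = 0.00151). Psmb9, its partner subunit, differed by 0.28 in KI cells (SE 0.0877, limma adjusted p = 0.0164) and 0.23 in WT cells (adjusted p = 0.0537). The KI call for Psmb9 was lost with KI Tconv 2 (0.25), KI Treg 1 (0.235) or KI Treg 2 (0.19) left out, and the WT difference of 0.23 passed without KI Treg 2, KI Treg 3 or KI Treg 4. With only the 2 groups in the fit the KI call was lost (limma adjusted p = 0.0608) and the WT difference passed (adjusted p = 0.00748), and the WT difference also passed with array weights, median-centred arrays or the mean of all probe sets.

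Parp14, an ADP-ribosyltransferase, measured 9.22, 9.35, 9.28 and 9.56 in KI Tregs, against 8.89, 8.80, 8.81 and 9.14 in KI Tconv. It measured 9.65, 9.30, 9.58 and 9.57 in WT Tregs, against 8.91, 9.07, 9.00 and 9.02 in WT Tconv. Tregs were higher on every array, by 0.44 in KI cells (SE 0.0923, limma adjusted p = 0.000863) and 0.53 in WT cells (adjusted p = 0.000202). Its near neighbour Parp9 differed by 0.30 in KI cells (SE 0.0809, limma adjusted p = 0.00675) and 0.20 in WT cells (adjusted p = 0.0675). In WT cells Parp9 passed without WT Treg 2 (0.24) or WT Tconv 1 (0.24), with array weights (0.22) and with only the 2 groups in the fit.

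Usp18, the protease that removes Isg15 from proteins and blocks the receptor as a feedback inhibitor, measured 7.00, 7.37, 6.67 and 6.96 in KI Tregs, against 6.92, 6.28, 6.44 and 6.70 in KI Tconv. It measured 6.75, 6.81, 7.42 and 6.95 in WT Tregs, against 6.50, 6.13, 5.79 and 6.22 in WT Tconv. WT arrays did not overlap while KI arrays did, and the differences were 0.42 in KI cells (SE 0.183, limma adjusted p = 0.0775) and 0.82 in WT cells (adjusted p = 0.00178). The interaction, which is the genotype difference in Tregs less that in Tconv, was -0.40 for Usp18 (adjusted p = 0.788), so a difference between the genotypes was not shown. In KI cells Usp18 passed without KI Treg 3 (0.53) or KI Tconv 1 (0.53), and with array weights (0.56, limma adjusted p = 0.00552).

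Xaf1, an interferon-induced promoter of apoptosis, differed by 0.25 in KI cells (SE 0.105, limma adjusted p = 0.0696) and 0.48 in WT cells (adjusted p = 0.00155). Ifi35, which associates with the protein Nmi, differed by 0.19 in KI cells (SE 0.0768, limma adjusted p = 0.0516) and 0.32 in WT cells (adjusted p = 0.00337). Both passed in KI cells without KI Treg 3 (0.30 for Xaf1 and 0.24 for Ifi35). Xaf1 also passed there without KI Tconv 1 (0.30) or KI Tconv 3 (0.30), and Ifi35 without KI Treg 4 (0.24) or KI Tconv 4 (0.23). Both passed there with array weights (0.21 and 0.28), Xaf1 with 3 title number ranges as a block, and Ifi35 with 2 such ranges, with the mean of all probe sets or without the arrays numbered 24 to 27 (0.27). The WT call of Xaf1 was lost with the mean of all probe sets (0.32, limma adjusted p = 0.071).

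Trim30a, a RING-domain protein of the mouse, differed by 0.28 in KI cells (SE 0.0945, limma adjusted p = 0.0252) and 0.09 in WT cells (adjusted p = 0.511). Its KI call was lost without KI Treg 1 (0.27), KI Treg 2 (0.26), KI Treg 4 (0.23) or KI Tconv 2 (0.20), and with only the 2 groups in the fit (limma adjusted p = 0.0553). Herc6, the mouse ligase that attaches Isg15, and Rtp4, a receptor-transporting protein, were -0.18 and -0.13 in KI cells and 0.31 and 0.35 in WT cells and passed in neither. In WT cells Herc6 passed without WT Tconv 4 (0.43) or the arrays numbered 24 to 27 (0.44) and Rtp4 without WT Treg 2 (0.45). With array weights Herc6 passed in KI cells (-0.40, limma adjusted p = 0.0103) and Rtp4 in WT cells (0.45, adjusted p = 0.0153). Within the arrays numbered 24 to 27 Herc6 had the opposite signs, 0.13 in KI and -0.10 in WT cells.

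**Figure D3:**
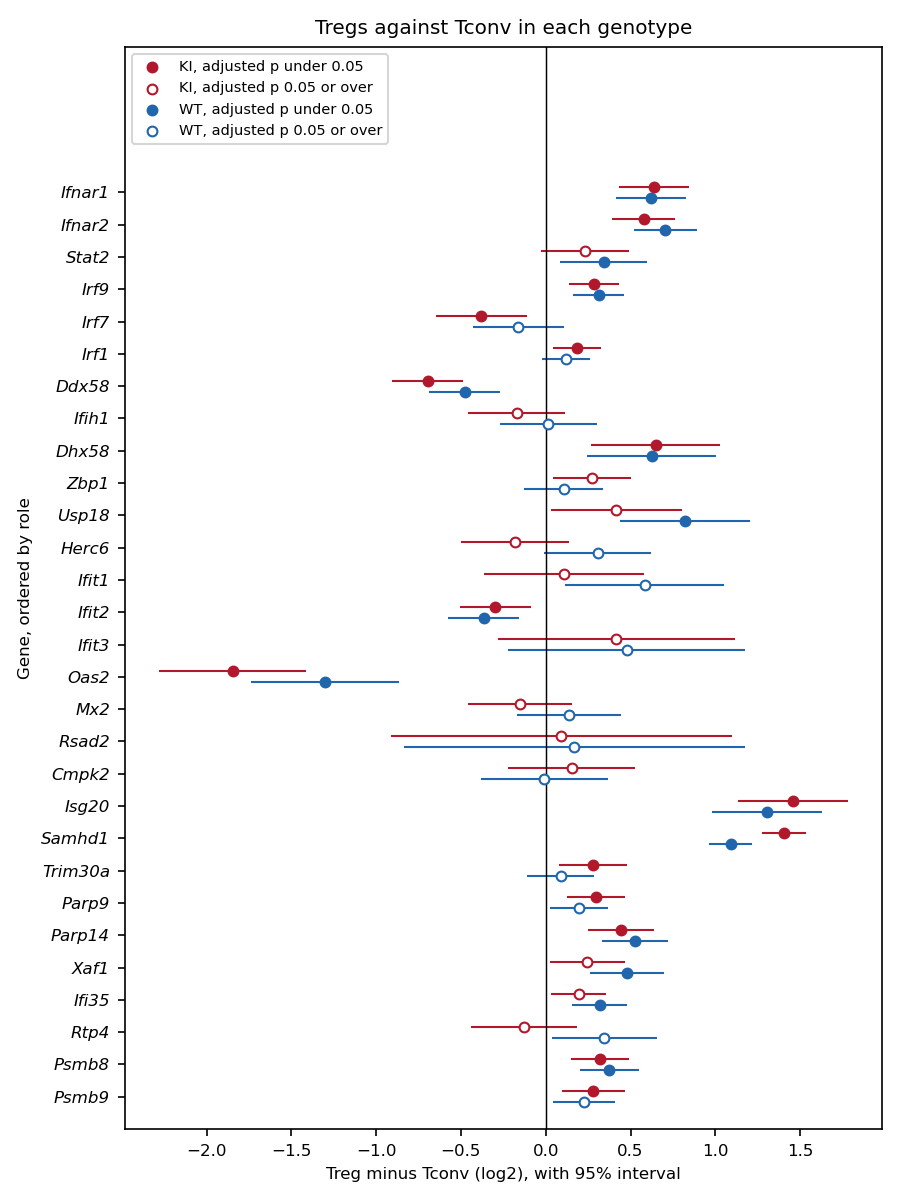
Treg minus Tconv difference (log2, with 95% interval of the limma fit) of each tested gene in KI and WT cells, with filled points for an adjusted p under 0.05. The 11 genes filled in both genotypes run from Oas2 (-1.85 in KI, -1.30 in WT) to Isg20 (1.46 in KI, 1.30 in WT). Oas2 passed the filter through Tconv alone, so it had to be lower in Tregs.

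Within the arrays numbered 24 to 27, which hold 1 array of each group, all 31 called cell type differences had the same sign as over the 16 arrays. Of the 29 members, 24 had the same sign as the full KI comparison there and 25 as the full WT comparison. The 16 arrays include the ones numbered 24 to 27, and the filter fixed the sign of Oas2. This agreement is therefore partly built in and is a description. For 10 of the 31 calls the size moved, in KI cells from 0.28 to 0.07 for Psmb9 and from -0.30 to -0.50 for Ifit2.

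Markers of other cells were measured beside these genes, since a sort can hold other types. The array means of plasmacytoid dendritic cell genes, with 5 of 7 on the array, ran from 5.76 to 5.92 in KI Tregs and 5.50 to 5.67 in KI Tconv, and from 5.40 to 5.72 in WT Tregs and 5.41 to 5.58 in WT Tconv. Those of B cell genes, with 5 of 6, ran from 4.79 to 5.81 in KI Tregs and 4.41 to 5.55 in KI Tconv, and from 4.58 to 6.27 in WT Tregs and 4.60 to 6.15 in WT Tconv. Those of monocyte and macrophage genes, with 7 of 7, ran from 3.71 to 5.63 in KI Tregs and 3.87 to 4.69 in KI Tconv, and from 3.94 to 5.92 in WT Tregs and 3.98 to 4.77 in WT Tconv. Of these 3 lists, the plasmacytoid dendritic cell mean in KI cells was the one that did not overlap. Of its genes Ccr9 alone did not overlap there, with means of 8.74 in KI Tregs and 7.70 in KI Tconv. Tcf4 averaged 4.71 in KI Tregs and 4.24 in KI Tconv, and Pacsin1 7.36 and 7.19, and the arrays of both overlapped. Cox6a2 (4.17 and 4.24) and Klk1 (4.13 and 4.40) were no higher in the KI Tregs. In WT cells Ccr9 averaged 7.85 in Tregs and 7.59 in Tconv, Tcf4 4.30 and 4.37, and Pacsin1 7.29 and 7.24. Single genes of the other lists did separate. Cd79b of the B cell list ran from 6.47 to 7.40 in KI Tregs and 4.76 to 6.42 in KI Tconv. Cd68 of the macrophage list ran from 4.48 to 6.21 in WT Tregs and 3.54 to 4.25 in WT Tconv. Cd79b overlapped in WT cells and Cd68 in KI cells, and the other genes of these lists overlapped in both. Conventional dendritic cell genes, with 5 of 6, had means of 4.51 to 4.98 in KI Tregs and 4.39 to 4.63 in KI Tconv. In WT cells these were 4.40 to 4.94 in Tregs and 4.45 to 4.60 in Tconv. All of these genes but Cst3 lay below 5 on every array. Cst3 was higher in Tregs without overlap, at 9.58 to 10.22 in KI Tregs and 9.04 to 9.45 in KI Tconv. It ran from 9.60 to 10.00 in WT Tregs and 9.02 to 9.54 in WT Tconv. NK cell genes, with 5 of 5, ran from 4.11 to 4.73 in KI Tregs and 4.53 to 5.01 in KI Tconv, and from 3.82 to 4.38 in WT Tregs and 4.65 to 4.96 in WT Tconv, without overlap in WT cells. Of the NK cell genes Klrd1 averaged 4.31 in KI Tregs and 7.67 in KI Tconv, and Eomes 6.52 in KI Tregs and 5.70 in KI Tconv. The mean of the 2 CD8 T cell genes did not overlap either, at 5.85 to 6.26 in KI Tregs and 5.18 to 5.61 in KI Tconv, and at 6.11 to 6.45 in WT Tregs and 4.80 to 5.19 in WT Tconv. That gap lay in Cd8a, which averaged 6.10 in KI Tregs and 4.28 in KI Tconv, and 6.43 in WT Tregs and 4.08 in WT Tconv. Cd8b1 averaged 6.16 in KI Tregs and 6.42 in KI Tconv, and 6.09 in WT Tregs and 6.01 in WT Tconv. RMA values have no zero, so absence could not be read from them. The part of these cells in the results was not tested.

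The KI and WT cells of each type were compared next, the question the series title raises for an altered Foxp3. No member passed between KI Tregs and WT Tregs with limma, where 2.84% of all genes were called. At an unadjusted p under 0.05 there were 3 of 29, Rtp4, Samhd1 and Zbp1, where 16.5% of all genes reached that level. The differences ran from -0.35 for Rtp4 to 0.32 for Dhx58, the smallest adjusted p was 0.215, for Samhd1, and no member's arrays separated the genotypes, as 8.12% of all genes did. The 95% interval lay within 0.5 of 0 for 21 members and within 1 for 27. The median difference was 0.01 over the members and 0.04 over all genes.

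Samhd1 was the member closest to a difference between the genotypes. It was 0.15 in KI against WT Tregs (SE 0.061, limma adjusted p = 0.215) and -0.16 in KI against WT Tconv (adjusted p = 0.733). The interaction was 0.32 (SE 0.0863, adjusted p = 0.139). Without KI Tconv 1 it was 0.38 and passed (limma adjusted p = 0.0184). The second probe set of Samhd1 gave 0.36 in KI against WT Tregs, and the mean of both sets gave 0.26, which passed (limma adjusted p = 0.0155). Within the arrays numbered 24 to 27 the difference was 0.12 in Tregs and -0.18 in Tconv.

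Between KI Tconv and WT Tconv no member passed either, where 0.135% of all genes were called. Here 7 of 29 members had an unadjusted p under 0.05, where 5.9% of all genes did. Xaf1, Mx2, Usp18, Ifi35, Oas2 and Ifit1 were the 6 with a positive difference and Samhd1 the 1 with a negative difference, and the smallest adjusted p was 0.727. Ifit1 had the largest difference, 0.50 (SE 0.223). Oas2 and Mx2 passed the filter partly through KI Tconv arrays, so their places among the 7 are a description. The interval lay within 0.5 of 0 for 20 members and within 1 for 27, and the median difference was 0.05 over the members and 0.01 over all genes.

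In 3 of the 29 members, Irf7, Mx2 and Oas2, every KI Tconv array exceeded every WT Tconv array, where 3.74% of all genes did not overlap in either direction. Mx2 measured 5.31, 4.99, 5.21 and 4.97 in KI Tconv, against 4.75, 4.75, 4.64 and 4.82 in WT Tconv. The difference was 0.38 (SE 0.146, limma adjusted p = 0.733). Oas2 and Irf7, whose arrays are given above, differed by 0.44 and 0.21. Mx2 was named after its values were seen. Oas2 exceeded 5 on every KI Tconv array, and Mx2 on some KI Tconv arrays but on no WT Tconv array. Both passed the filter partly through KI Tconv, so their places in these counts are a description. Within the arrays numbered 24 to 27 the differences were 0.15 for Mx2, 0.28 for Oas2 and 0.23 for Irf7, but -0.01 for Xaf1, -0.32 for Herc6 and 0.46 for Rsad2, against 0.28, 0.31 and -0.15 over the 16 arrays. Of the 29 members, 17 had the same sign there as over the 16 arrays in this comparison, and 22 did between KI and WT Tregs.

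No member passed the interaction with limma, where 0.786% of all genes were called. At an unadjusted p under 0.05 there were 3 of 29, Samhd1, Herc6 (-0.49) and Rtp4 (-0.48), where 8.27% of all genes did. The median was -0.07 over the members and 0.02 over all genes. Since most arrays of the genotypes carry different title numbers, genotype and title number can be told apart only within the numbers 24 to 27. There the interaction was 0.30 for Samhd1, -0.62 for Rtp4 and 0.22 for Herc6, the opposite sign for Herc6, and 21 of the 29 members kept their sign.

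**Figure D4:**
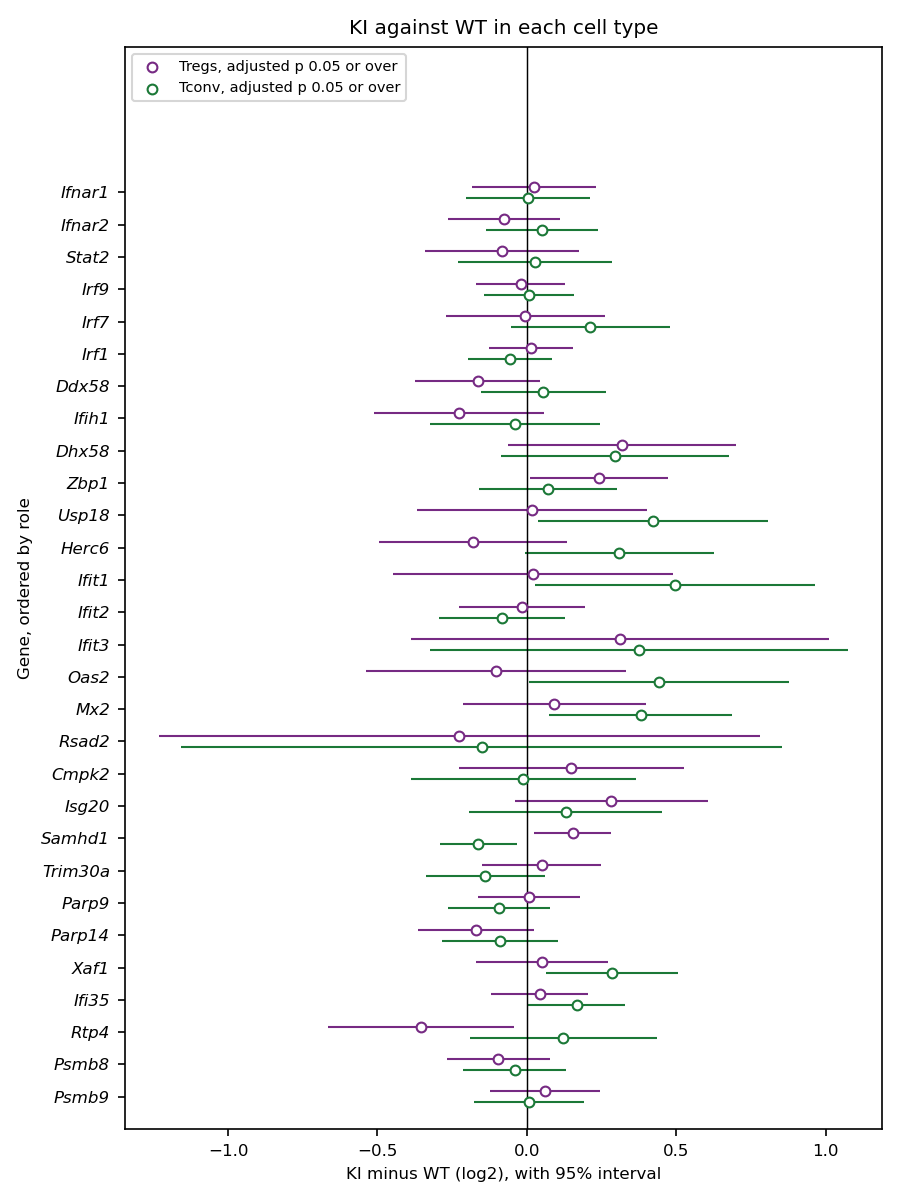
KI minus WT difference (log2, with 95% interval of the limma fit) of each tested gene in Tregs and in Tconv. No point is filled, because no adjusted p lay under 0.05, and the points run from -0.35 (Rtp4 in Tregs) to 0.50 (Ifit1 in Tconv).

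For most members, arrays of the same group differed by more than the median gene. The within-group SD exceeded the median of all tested genes, 0.143, for 19 of the 29 members, and the members' median was 0.166. The 7 members at or above the 90th percentile of all genes were Rsad2, Ifit3, Ifit1, Oas2, Usp18, Dhx58 and Cmpk2. Against the tenth of genes nearest in mean level, Oas2 stood at percentile 77.0, Dhx58 at 84.6 and Cmpk2 at 68.1, while Isg20 and Rtp4 stood at 93.5. Rsad2 had an SD of 0.801, at percentile 99.3, and Ifit3 an SD of 0.553, at percentile 98.7. Rsad2 passed the filter through the 5 arrays where it was high, so its spread is a description. Samhd1, by contrast, had an SD of 0.0861. Over the 7 tested members whose window held the response element the median SD was 0.20, and over the 14 whose window held none it was 0.14, a difference that was not tested. The 7 include Rsad2, while Oas2, Usp18 and Dhx58 had no window and are in neither set. The sets were not matched for mean level, so these medians are a description.

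Rsad2 and Ifit1, given here by array after their values were seen, show which arrays stood apart. Rsad2 measured 4.86, 6.03, 4.50 and 4.86 in KI Tregs, against 5.78, 4.33, 4.85 and 4.93 in KI Tconv. It measured 4.59, 4.66, 6.79 and 5.11 in WT Tregs, against 6.35, 4.86, 4.80 and 4.47 in WT Tconv. In each group 1 array lay well above the rest, KI Treg 2, KI Tconv 1, WT Treg 3 and WT Tconv 1. Rsad2 exceeded 5 only on these and on WT Treg 4, so these arrays carried it through the filter. The other 2 probe sets of Rsad2 averaged 3.80 and 3.58 over the 16 arrays, near the array medians. Ifit1 was highest on the same 4 arrays, with 7.22, 7.60, 6.57 and 7.05 in KI Tregs, against 7.29, 6.43, 7.04 and 7.26 in KI Tconv. It measured 6.96, 7.05, 7.36 and 7.01 in WT Tregs, against 7.07, 6.47, 6.12 and 6.38 in WT Tconv.

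On each of those arrays 14 to 18 of the 29 members were the highest of their group. Rsad2 and Ifit1, by which the arrays were picked out, are in these counts. KI Treg 2 was the highest of its group for 18 of 29 members (62.1%), against 43.8% of all genes, and KI Tconv 1 for 14 (48.3%), against 23.0% of all genes. WT Treg 3 and WT Tconv 1 were each highest for 16 (55.2%), against 18.4% and 32.8% of all genes. KI Treg 3 was the lowest of its group for 21 members (72.4%), against 25.8% of all genes, and KI Tconv 2 for 19 (65.5%), against 26.7%. The median deviation from the group mean was 0.22 on KI Treg 2, 0.08 on KI Tconv 1, 0.10 on WT Treg 3 and 0.09 on WT Tconv 1, while on KI Treg 3 it was -0.20. Over all genes it was 0.07 on KI Treg 2, -0.01 on KI Tconv 1 and WT Treg 3, 0.01 on WT Tconv 1 and -0.02 on KI Treg 3.

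Marker lists of Tregs, T cells and other cells were read on the same arrays. The mean of the erythroid genes, with 2 of 4 on the array, was highest on the same array as the members in all 4 groups, and lowest on the same array in 1. Of these 2 genes only Hba-a1 passed the filter. The B cell, monocyte and macrophage, neutrophil and plasma cell means were lowest on the same array as the members in all 4 groups. They were highest on the same array in 3 groups for B cell and neutrophil genes, 2 for plasma cell genes and 1 for monocyte and macrophage genes. The T cell mean was highest on the same array as the members in 3 groups and lowest in 1. For plasmacytoid dendritic cell genes these counts were 2 and 0, for NK cell genes 1 and 3, and for dendritic cell genes 1 and 2. For Treg genes and for CD8 T cell genes they were 1 and 1. The neutrophil mean, over 5 of 6 genes, ran from 4.95 to 7.83 in KI Tregs, 3.98 to 6.81 in KI Tconv, 3.57 to 7.86 in WT Tregs and 4.48 to 7.01 in WT Tconv. WT Treg 4, with the 7.86, was highest for only 2 of the 29 members. The part of these cells in the spread was not tested.

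**Figure D5:**
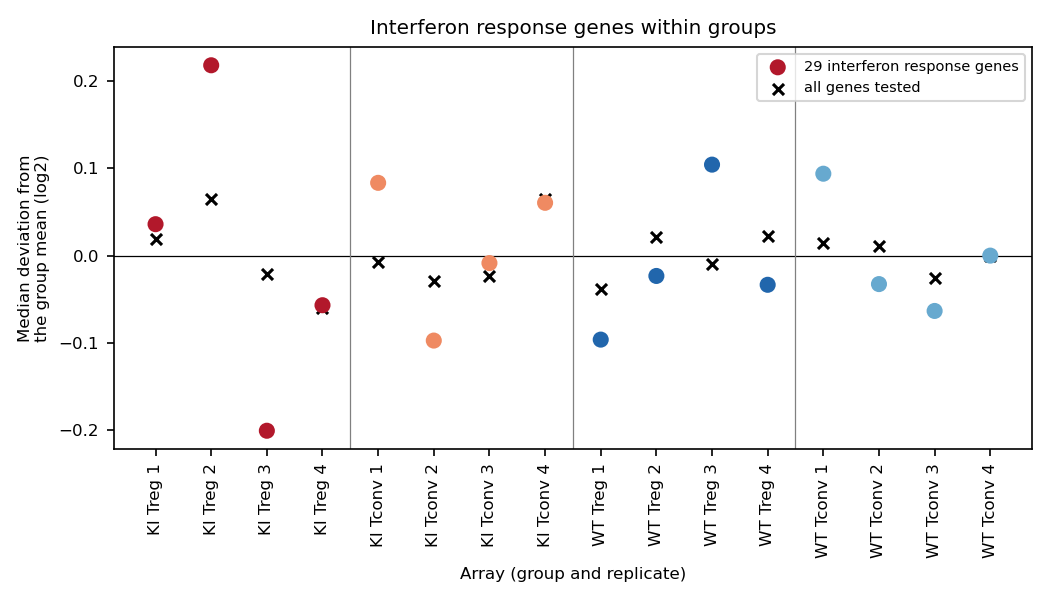
Median deviation from the group mean (log2) on each array over the 29 interferon response genes (coloured points) and over all 8139 tested genes (crosses). KI Treg 2 lies highest at 0.22 and KI Treg 3 lowest at -0.20, while all genes deviate by less on both.

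The members that were not tested are given by their values alone. Mx1, a GTPase that blocks influenza virus, ran from 4.07 to 5.90 in KI Tregs and 3.59 to 4.42 in KI Tconv, and from 4.15 to 4.39 in WT Tregs and 3.62 to 3.78 in WT Tconv. Its only value above 5 was on KI Treg 2, the array highest for most members. In the other groups Mx1 was highest on KI Tconv 1, WT Treg 4 and WT Tconv 3. These WT arrays were not the ones where Rsad2 was highest. The arrays of Mx1 were named after its values were seen. Oas3, Oasl1, Oasl2 and Eif2ak2, which encodes the RNA-activated kinase PKR, lay below 5 on every array. Isg15, Ifi44, Bst2 and Tap1 had no probe set annotated to them alone and were not analysed here.

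The other genes of the interferon pathway were described from a list of 75, of which 64 had a probe set and 54 were tested. In KI cells 27 differed between Tregs and Tconv, 21 higher and 6 lower, and in WT cells 24 did, 19 higher and 5 lower, beside the 41.1% and 34.6% of all genes called. The largest by p were Tlr7 (1.85 in KI and 2.03 in WT cells), an endosomal RNA sensor, and Irf8 (1.85 in KI and 1.62 in WT cells), a transcription factor of myeloid and B cells. Ifi27l2a (1.19 in KI and 0.99 in WT cells) and Epsti1 (0.98 in KI and 0.72 in WT cells), both interferon-induced, were also higher in Tregs. Igtp (0.58 in KI and 0.51 in WT cells), a GTPase of the response to interferon gamma, and Sting1 (0.74 in KI and 0.54 in WT cells), the adaptor of DNA sensing, rose too. Tdrd7 (0.80 in KI and 1.27 in WT cells) and Tor3a (0.70 in KI and 0.87 in WT cells) completed the genes with the lowest p in either genotype. Cgas, the DNA sensor upstream of Sting1 and chosen after its values were seen, was lower, with differences of -0.38 in KI (limma adjusted p = 0.0231) and -0.50 in WT cells (adjusted p = 0.00513). None of the 54 passed limma between KI and WT Tregs, KI and WT Tconv or in the interaction, and 9, 4 and 2 had an unadjusted p under 0.05, as did 16.5%, 5.9% and 8.27% of all genes. Irf8 and Tlr7 are also genes of B cells and dendritic cells, whose marker means are given above, and the part of such cells was not tested.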

How the data were processed

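Each deposited value is the log2 expression of a probe set, made by the authors with RMA in Partek 6.5, per the submitters' processing notes. RMA subtracts background, equalises the arrays and summarises probes, and its options were not given in the sources used here. The table held 45141 probe sets: 104 controls, 28898 matched to 1 gene, 551 to several and 15588 to no listed gene, all by the platform annotation updated through RefSeq. A gene was read from its probe set with the greatest mean across the 16 arrays. Genes above 5 on at least 4 arrays were kept, 8139 in all, and the number of arrays limits the precision. A mean per group was fitted with limma 3.58.1 in R 4.3.3 (moderated variances with a trend), tests were two-sided, and p-values were adjusted by the Benjamini-Hochberg method over all 8139 genes, with a threshold of 0.05. The procedure was tested on simulated data. Arrays were numbered 1 to 4 within a group in accession order, which pairs nothing. The members, lists and tests were chosen with earlier results of these data known. Values per array are given for the called members with the 8 lowest p and for Irf7, Irf9, Stat2, Ifit3, Usp18, Ifnar1 and Ifnar2. The alternatives were other filters, probe set rules, variance settings, scalings, blocks and arrays left out.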

Additional observations from a re-analysis of the deposited data

Results flagged for a closer look

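An array was noted where its gap to the nearest other array exceeded, as a share of the group's range, the 95% critical value of Dixon for a tested member. This held in 7 of 116 groups of 4 arrays, beside 5.8 that chance gives at that level. Ifit2 was 9.13 on KI Tconv 4, with the other KI Tconv arrays at 8.80 to 8.81, and Samhd1 was 10.63 on KI Tconv 1, with the others at 10.37 to 10.38. Irf7 was 5.82 on WT Treg 2, with the others at 6.27 to 6.35, and Ddx58 was 8.03 on WT Treg 4, with the others at 8.12. Stat2 was 6.15 on WT Tconv 2, with the others at 5.89 to 5.90. Psmb8 was 10.97 on the same array, with the others at 11.11 to 11.13, and Ifnar1 was 7.77 on WT Tconv 1, with the others at 8.19 to 8.25. No member passed the interaction between genotype and cell type.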

How the results depend on the processing

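Over all alternatives that kept 4 arrays a group or blocked the title numbers, the members called between cell types numbered 12 to 21 in KI and 14 to 19 in WT cells. The share of all genes called also differed: in KI cells it was 34.1% with 12 members called (only the 2 groups in the fit) and 55.9% with 21 (array weights), and in WT cells 33.2% and 16.7% with 14 (mean of all probe sets, and no filter, which tests more dim genes) and 37.9% and 41.9% with 19 (only the 2 groups, and array weights). With 1 array left out 13 to 18 members were called in KI and 14 to 17 in WT cells. Both fits with title number ranges as a block kept all 31 cell type calls. With array weights 5 members passed between KI and WT Tregs (Dhx58, Parp14, Rtp4, Samhd1 and Zbp1) and 2 passed the interaction (Herc6 and Samhd1), and with the mean of all probe sets 1 passed each, Samhd1. With 1 array left out the count stayed at 0 between KI and WT in both cell types and was 0 to 1 in the interaction. No alternative called a member between KI and WT Tconv. The Parp14 difference between KI and WT Tregs changed sign with 3 title number ranges as a block, to 0.012 (limma adjusted p = 0.996). That fit can tell genotype from title number only within the numbers 24 to 27, where this difference was -0.01. What sets the title number ranges apart was not tested. Over all genes, 231 were called between KI and WT Tregs, 11 between KI and WT Tconv and 64 in the interaction. With array weights these were 1715, 249 and 453. With 3 title number ranges as a block the first 2 counts were 29 and 5, and without the arrays numbered 24 to 27 they were 410 and 105. With only the 2 groups compared, 4 were called between KI and WT Tconv. With 1 array left out they ran, where they moved most, from 90 to 558, 7 to 65 and 32 to 104. The interaction could not be fitted with only 2 groups. No paired analysis was possible because the titles' numbers are shared by no 2 groups. The number of arrays and values near background limit what could be detected.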
